A study of Mus musculus with 6 samples.

Results

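The Reg genes encode small secreted proteins with a C-type lectin fold, and the first of them was found in regenerating pancreatic islets. All 7 mouse members named in the count table (Reg1, Reg2, Reg3a, Reg3b, Reg3d, Reg3g and Reg4) were taken by symbol from its 55536 genes and followed across islet RNA of 2 genotypes, each library beside its level of the acinar enzymes Cpa1 and Cela2a. Control mice were Klf4+/+;Gcg-iCre and knockout mice Klf4fl/fl;Gcg-iCre, on the strain written C57B1/6J, with 3 libraries each. Both groups thus carried the Gcg-iCre driver, which makes Cre recombinase where glucagon is expressed, in alpha cells, while RNA was taken from whole islets. Age, sex and any pooling of animals are not given in the sources used here, and where nothing shows that libraries came from separate mice, p-values measure the spread between libraries only.

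In the healthy pancreas Reg1 and Reg2 are made chiefly by acinar cells, the exocrine cells that secrete digestive enzymes, and reach the pancreatic juice. The Reg3 genes are known as acute genes of the pancreas and gut: Reg3b is the pancreatitis-associated protein, Reg3g is an antibacterial lectin of the small intestine, and cytokines of the interleukin-6 and interleukin-22 families induce both through the transcription factor STAT3. Islets prepared for RNA carry some acinar tissue, so a whole-islet count of a Reg gene can come from either compartment. In bulk RNA, fewer cells of a type and less RNA per cell cannot be told apart.

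All but Reg4, that is 6 members, lie side by side on chromosome 6 of GRCm38, from 78370657 to 78468872, a span of 98216 bases that holds those 6 annotated genes and 0 others; in order they are Reg3b, Reg3d, Reg3a, Reg2, Reg1 and Reg3g. Reg3d (78375874 to 78378865) and Reg3g (78466269 to 78468872) are on the minus strand. Reg3b (78370657 to 78373466), Reg3a (78380709 to 78383827), Reg2 (78395623 to 78408106) and Reg1 (78422711 to 78428667) are on the plus strand, and Reg4 is alone on chromosome 3 (98222156 to 98236748, plus strand). All 7 are annotated as protein-coding, and 0 of them overlap another annotated gene. The longest transcripts were aligned end to end. Among pairs without Reg3g the most alike, those of Reg3a and Reg3b, were 70.4% identical over their alignment. The Reg3g transcript has 2089 bases against 698 to 1021 in the other members, which caps the identity of its pairs, so this ranking cannot place it. No stretch of 50 bases was shared between members. Of such stretches, 3.65% in Reg1 and 11.3% in Reg2 also occur in transcripts of genes outside the family, so a small part of those 2 counts is uncertain.

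The DNA before the RefSeq start sites of 4 clustered members, taken as 2 pairs that varied together, is shown 5′ to 3′ on the gene's strand, from RefSeq (GRCm38.p6). Reg1 and Reg3d are shown as the pair that was low in the 2 libraries poorest in acinar enzymes, and Reg2 and Reg3a as a pair that put the 6 libraries in 1 order with a peak in a control. The windows are chr6:78425733-78425929 (plus strand, 197 bases, stopping 53 bases short of the RefSeq start site, where an annotated exon begins), chr6:78378866-78379115 (minus strand), chr6:78404905-78405154 (plus strand) and chr6:78380459-78380708 (plus strand), the last 3 being the 250 bases before the start site. The RefSeq start sites of Reg1 and Reg2 lie downstream of the starts of the GENCODE genes given above, so these 2 windows are inside the GENCODE gene spans. Capitals mark 4 motifs, each searched on both strands. The STAT palindrome is spelled TTCNNNGAA and the core of KLF sites is spelled CACCC, which reads GGGTG from the opposite strand. The E-box searched for here is spelled CACCTG and the TATA box is spelled TATAAAA, and no pair of these matches overlapped in the windows shown.
Reg1: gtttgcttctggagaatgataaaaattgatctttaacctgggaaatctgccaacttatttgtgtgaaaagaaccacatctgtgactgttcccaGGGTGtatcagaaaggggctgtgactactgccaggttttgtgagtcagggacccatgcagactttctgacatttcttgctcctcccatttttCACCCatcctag
Reg3d: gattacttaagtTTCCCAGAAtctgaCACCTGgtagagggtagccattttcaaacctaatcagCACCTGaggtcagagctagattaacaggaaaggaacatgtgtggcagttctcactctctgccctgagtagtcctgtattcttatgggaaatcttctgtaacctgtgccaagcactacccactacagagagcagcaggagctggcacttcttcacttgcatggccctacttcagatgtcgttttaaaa
Reg2: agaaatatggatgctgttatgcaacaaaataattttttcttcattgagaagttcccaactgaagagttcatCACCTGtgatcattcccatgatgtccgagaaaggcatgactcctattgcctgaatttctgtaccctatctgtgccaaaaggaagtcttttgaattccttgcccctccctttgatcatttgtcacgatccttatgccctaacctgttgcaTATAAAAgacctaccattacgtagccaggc
Reg3a: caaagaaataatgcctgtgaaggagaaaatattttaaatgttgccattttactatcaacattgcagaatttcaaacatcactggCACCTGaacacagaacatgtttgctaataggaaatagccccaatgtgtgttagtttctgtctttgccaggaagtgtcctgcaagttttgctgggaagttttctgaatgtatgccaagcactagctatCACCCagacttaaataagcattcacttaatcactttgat

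All 7 members have a promoter in the RefSeq table, which holds 32851 promoters, and motifs were counted over the 250 bases before each start site. The STAT palindrome was present upstream of 2 members, Reg3b (as TTCTTGGAA, 129 to 121 bases before the start) and Reg3d (as TTCCCAGAA, 238 to 230 bases before), against 7.02% of all promoters. The KLF core was present upstream of Reg1, Reg3a, Reg3b and Reg3g, against 52.0% of all promoters. The E-box and the TATA box were chosen after the sequences were seen. The E-box stood upstream of Reg2, Reg3a, Reg3b, Reg3d and Reg4, against 17.2% of all promoters, and the TATA box upstream of Reg1 (within the 53 bases not shown), Reg2, Reg3b and Reg3g, against 4.98%. Each match is a string of letters and not a shown binding site.

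Libraries held 101277200 to 110243918 counts, and 8 hormone and granin genes of islet cells, which define the labelled tissue, summed to between 24726494 and 28569854 normalized counts (counts divided by DESeq2 size factors) in every library. Of these 8 only Gcg, the glucagon gene, passed in DESeq2 (2.19% of all genes did), and 0 in edgeR (0.115%). Its log2 fold change was -0.56 ± 0.13 SE (DESeq2 adjusted p = 0.00332, 0.144 without knockout replicate 1 and 0.0826 without knockout replicate 3). With the acinar score described below as a covariate it was -1.07. At an unadjusted p under 0.05 there was 1 of the 8 in each tool, against 9.03% of all genes in DESeq2 and 9.48% in edgeR. For Klf4, the targeted gene, control replicates 1 to 3 held 3148, 2879 and 2015 normalized counts and knockout replicates 2340, 2540 and 2277; the groups overlapped (log2 fold change -0.17 ± 0.15 SE, DESeq2 adjusted p = 0.774), and gene-level counts do not show whether the deleted exons were read. Xist, the RNA of the silent X chromosome, was at 77938 to 108105 normalized counts in controls and 12.4 to 30.2 in knockouts, and the Y-linked Ddx3y was at 0 in each control and 5599 to 6265 in the knockouts. Genotype and sex therefore cannot be told apart in any comparison below. Libraries also differed in acinar content: Cpa1, which encodes a carboxypeptidase, was at 67561, 121079 and 56070 normalized counts in control and 165163, 212977 and 149832 in knockout replicates 1 to 3. Cela2a, an elastase, was at 75525, 138590 and 67245 in control and 168550, 229316 and 164898 in knockout replicates. Every knockout library was above every control for both enzymes, and control replicate 2 was the control nearest to the knockouts.

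Expressed per kilobase of exon, so that genes of different length can be compared, Reg1 was the most abundant member in all 6 libraries and took 74.7% to 94.8% of the summed Reg level. Its level was 26491 ± 16194 normalized counts per kilobase in control and 49734 ± 2392 in knockout libraries (SD, n = 3 each). Reg2, the nearest relative of Reg1, came second in every library, at 4638 ± 4970 and 2508 ± 1105 per kilobase. Reg3d, also called islet neogenesis associated protein-related protein, was at 918 ± 684 and 1304 ± 292, and Reg3b at 875 ± 1044 and 488 ± 453. Reg3a was at 508 ± 611 and 182 ± 147 per kilobase and Reg3g at 23.1 ± 25.0 and 18.3 ± 7.95. The ranges of Reg1 lay above those of Reg2 in both groups. Among controls the ranges of Reg2, Reg3d, Reg3b and Reg3a overlapped one another, and that of Reg3g, reaching 51.8, overlapped that of Reg3a, which began at 48.1. Among knockouts Reg2 overlapped Reg3d and Reg3b overlapped Reg3a, while Reg3d lay above Reg3b and Reg3g below the other members tested. The place of Reg3g rests on its exon length of 2114 bases, against 782 to 1142 in the other members. Before division by length Reg3g reached 53.9 normalized counts in knockouts, above the lowest Reg3a value there, 49.5. Reg4, which is known from endocrine and goblet cells of the intestine, had 0 counts in 5 libraries and 2 counts in knockout replicate 3, below the floor of 3 counts per library. It did not enter the test, which took genes with at least 10 counts in total.

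In control replicates 1 to 3, Reg1 reached 12326, 40389 and 19130 normalized counts, against 43344, 44118 and 47416 in the knockouts. The 3 knockout libraries lay close together and above every control, control replicate 2 just under them and the other 2 controls far below. The log2 fold change of knockout against control was 0.91 ± 0.51 (SE) with a 95% interval from -0.085 to 1.90, and it did not pass an adjusted p of 0.05 over all genes (DESeq2 adjusted p = 0.515, edgeR adjusted p = 0.455). Among the 15811 genes with a mean of at least 50 normalized counts, 9.42% had every knockout library above every control.

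Reg3d had 268, 1310 and 577 normalized counts in control and 945, 837 and 1276 in knockout replicates 1 to 3. Its pattern was like that of Reg1 in the low values of control replicates 1 and 3, but control replicate 2 was the highest of all 6 libraries, so the groups overlapped. The log2 fold change was 0.51 ± 0.65 (SE, DESeq2 adjusted p = 0.884), with a 95% interval from -0.77 to 1.78.

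Reg2 had 405, 9633 and 3209 normalized counts in control and 2329, 1365 and 3468 in knockout replicates 1 to 3. Control replicate 2 was 2.78-fold above the next library and control replicate 1 was the lowest, so the 3 knockout libraries lay inside the control range. The log2 fold change was -0.89 ± 1.11 (SE, DESeq2 adjusted p = 0.878).

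Reg3a had 39.7, 991 and 227 normalized counts in control and 116, 49.5 and 284 in knockout replicates 1 to 3. Reg3b, the pancreatitis-associated protein, had 109, 2354 and 535 in control and 400, 136 and 1134 in knockout replicates 1 to 3. For both genes control replicate 2 stood at the top and control replicate 1 at the bottom, with knockout replicate 2 just above it. The log2 fold changes were -1.48 ± 1.25 (SE) for Reg3a and -0.84 ± 1.26 for Reg3b, with DESeq2 adjusted p-values of 0.763 and 0.910.

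Reg3g, the antibacterial lectin, was the rarest member tested, with 11.9, 109 and 25.5 normalized counts in control and 41.6, 20.6 and 53.9 in knockout replicates 1 to 3. Control replicate 2 was again the highest, 2.03-fold above the next library, and the groups overlapped. The log2 fold change was -0.34 ± 0.72 (SE, DESeq2 adjusted p = 0.944).

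**Figure D1:**
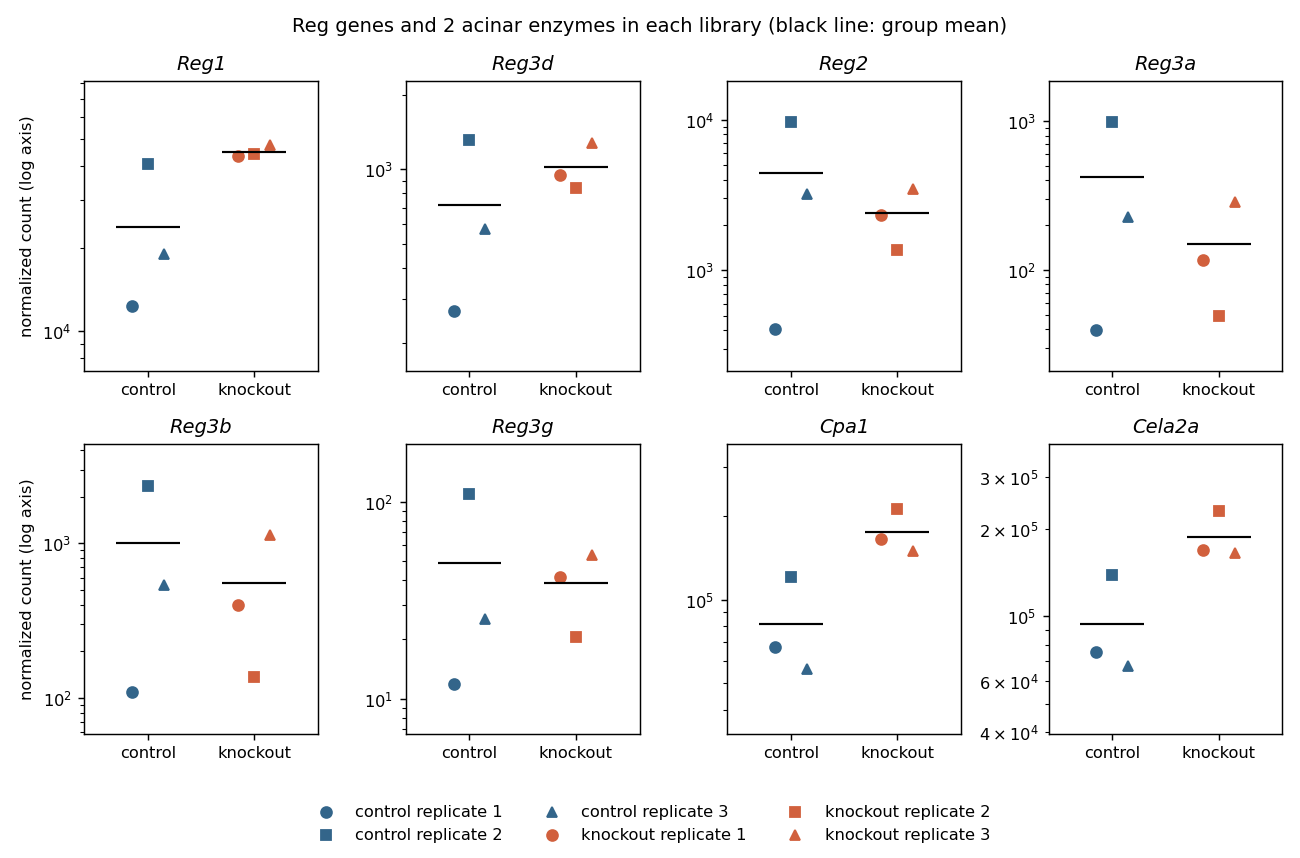
Normalized counts (log axis) of 6 Reg genes and 2 acinar enzymes in the 3 control and 3 knockout libraries; each marker is 1 library, its shape the replicate number, and the black line is the group mean. Reg1, Cpa1 and Cela2a have every knockout library above every control, whereas Reg2, Reg3a, Reg3b, Reg3d and Reg3g are highest in control replicate 2.

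Of the 6 members tested, 0 passed the threshold in DESeq2 and 0 in edgeR, where 2.19% and 0.115% of all genes passed. At an unadjusted p under 0.05 there were 0 in DESeq2 and 1, Reg1, in edgeR's quasi-likelihood test. The intervals were wide: that of Reg2 ran from a fold of 0.120 to one of 2.44, and that of Reg3b from 0.101 to 3.08. For Reg3a it ran from 0.0653 to 1.96. The intervals thus left room for a fall of several fold in Reg2, Reg3a and Reg3b, and for a rise of up to the upper bounds given.

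Among controls, the highest library was 23.8-fold above the lowest for Reg2, 25.0-fold for Reg3a and 21.6-fold for Reg3b, against a median of 1.19-fold over the 15811 genes. Only 16 of those genes had a wider control range than Reg3a and 18 a wider one than Reg3b. For Reg1 and Reg3d the control ranges were 3.28-fold and 4.89-fold. Among knockouts the ranges were 1.09-fold for Reg1, 1.52-fold for Reg3d, 2.54-fold for Reg2, 5.75-fold for Reg3a and 8.33-fold for Reg3b. The enzymes Cpa1 and Cela2a varied 2.16-fold and 2.06-fold among controls and 1.42-fold and 1.39-fold among knockouts. Reg2, Reg3a and Reg3b thus had wider ranges than these 2 enzymes in both groups. Among all 26 enzymes the control ranges reached 9.76-fold, for Amy2b, below those 3 Reg genes. Among knockouts Amy2b varied 6.25-fold, more than Reg2 and Reg3a, and the trypsinogen gene Prss3 ran from 2013 to 5029 normalized counts, a range close to that of Reg2 (Amy2b and Prss3 were named after their values were seen).

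Reg2, Reg3a and Reg3b put the 6 libraries in the same order, from control replicate 2 through knockout replicate 3, control replicate 3, knockout replicate 1 and knockout replicate 2 to control replicate 1. On log2 values Pearson's r over the 6 libraries was 0.98 between Reg3a and Reg3b, 0.94 between Reg2 and Reg3a, and 0.94 between Reg1 and Reg3d, but 0.39 between Reg1 and Reg3a. These correlations describe 6 libraries, in each of which the genes share a depth, and no test was made of them. Control replicate 2 was 7.43-fold above the mean of the other 2 controls for Reg3a, 7.31-fold for Reg3b, 5.86-fold for Reg3g, 5.33-fold for Reg2, 3.10-fold for Reg3d and 2.57-fold for Reg1. For Cpa1 and Cela2a the same ratio was 1.96 and 1.94, below that of all 6 Reg genes. Over 26 digestive enzyme genes its median was 1.96; the amylase gene Amy2b, at 9.22, was above every Reg gene, and the other 25 ran from 1.08 to 2.51. Only 11 of the 15811 genes were at least 2-fold above every other library in control replicate 2, and 3 of these were Reg2, Reg3a and Reg3b. The others included Cdkn2a, a cell cycle inhibitor gene, at 1026 normalized counts there and 18.6 to 41.6 in the other 5 libraries (named, like the next 3, after its values were seen). Gm48837 was at 4450 there and at 0 in the other 5, Hist1h2al, a histone gene, at 1886 against 0 to 9.98, and Gm42743 at 528 against 2.06 to 10.6. The part of these genes in the Reg counts was not tested. By the same measure knockout replicate 1 had 126 genes and control replicate 3 had 18, and the other 3 libraries had 1 to 6, so control replicate 2 did not have the most.

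**Figure D2:**
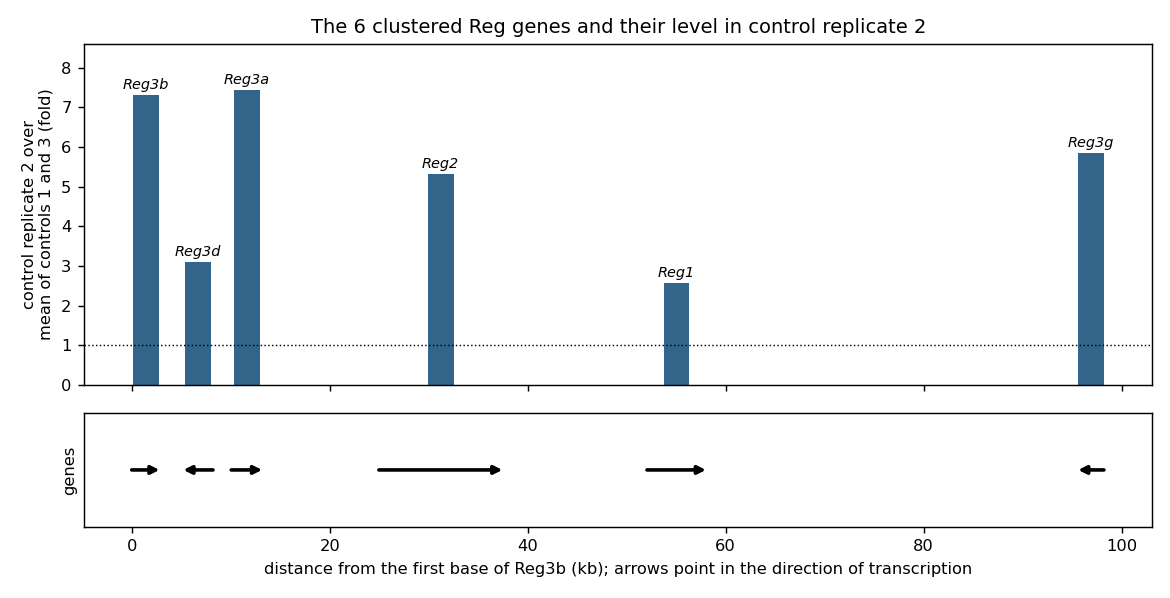
Level of each clustered Reg gene in control replicate 2 as a fold of the mean of control replicates 1 and 3 (bars, linear axis from 0, dotted line at 1), above a map of the 6 genes by distance in kilobases from the first base of Reg3b. The fold runs from 2.57 for Reg1 to 7.43 for Reg3a, and Reg3d, which lies between Reg3b and Reg3a, is at 3.10.

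Each Reg gene was then set beside the acinar content of its library. The acinar score was the mean log2(normalized count + 1) of 26 digestive enzyme genes, and was 12.77, 13.86 and 12.86 in control and 14.28, 14.68 and 14.03 in knockout replicates 1 to 3. The score differed by 1.17 between the groups (exact two-sided permutation p = 0.1, the smallest that 3 against 3 allows). Per 100 normalized counts of Cpa1, Reg1 had 18.2, 33.4 and 34.1 in control and 26.2, 20.7 and 31.6 in knockout replicates 1 to 3. On this footing the knockouts lay inside the control range. The log2 difference between the groups was 1.08 for Reg1 before and -0.086 after subtraction of the acinar score (exact permutation p = 0.1 and 0.8). With the score as a covariate in DESeq2, the log2 fold change of Reg1 was -0.10 (adjusted p = 0.992) and that of Reg3d was -0.49 (adjusted p = 0.979).

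For the other members the values relative to the acinar enzymes were lower in the knockouts on average, without passing any test. Per 100 normalized counts of Cpa1, Reg2 had 0.599, 7.96 and 5.72 in control and 1.41, 0.641 and 2.31 in knockout replicates 1 to 3, and Reg3b had 0.161, 1.94 and 0.954 against 0.242, 0.0639 and 0.757. Control replicates 2 and 3 stood above all 3 knockouts for both genes, and control replicate 1 was low. After subtraction of the score the group differences were -1.23 for Reg2, -1.98 for Reg3a, -1.55 for Reg3b, -0.40 for Reg3d and -1.03 for Reg3g, with exact permutation p-values of 0.3, 0.3, 0.4, 0.5 and 0.4. In DESeq2 with the covariate the log2 fold changes were -2.11, -2.59 and -1.85 for Reg2, Reg3a and Reg3b, with adjusted p-values of 0.903, 0.873 and 0.943; Reg3g, at -1.61, was given no adjusted p. In that fit 1.31% of all genes passed and 0 of the Reg genes, with 0 also at an unadjusted p under 0.05. Acinar score and genotype run together in these libraries, so the share of each cannot be told apart.

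Over the 6 libraries, Reg1 had the closest relation to the acinar score, with Pearson's r = 0.92 (exact permutation p = 0.0361, 0.217 after Benjamini-Hochberg adjustment over 6 genes) and Spearman's rho = 0.83 (exact p = 0.0583, adjusted 0.350). Without control replicates 1 and 3, the libraries farthest from the median score, r was 0.25, so the relation rests on those 2 libraries. For Reg3d r was 0.72 and rho 0.43 (exact permutation p = 0.128 and 0.419, adjusted 0.383 and 1). For Reg2, Reg3a, Reg3b and Reg3g r was 0.29, 0.030, 0.11 and 0.39 and rho 0.029, 0.029, 0.029 and 0.20, with exact permutation p of at least 0.453. Among the 4 libraries with the highest acinar scores, these 4 genes and Reg3d stood in the opposite order to the score, with r from -0.99 to -0.94. Knockout replicate 2, the library richest in acinar enzymes, was the lowest of the 4 for each of them. Within a genotype 3 libraries are too few for a correlation.

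**Figure D3:**
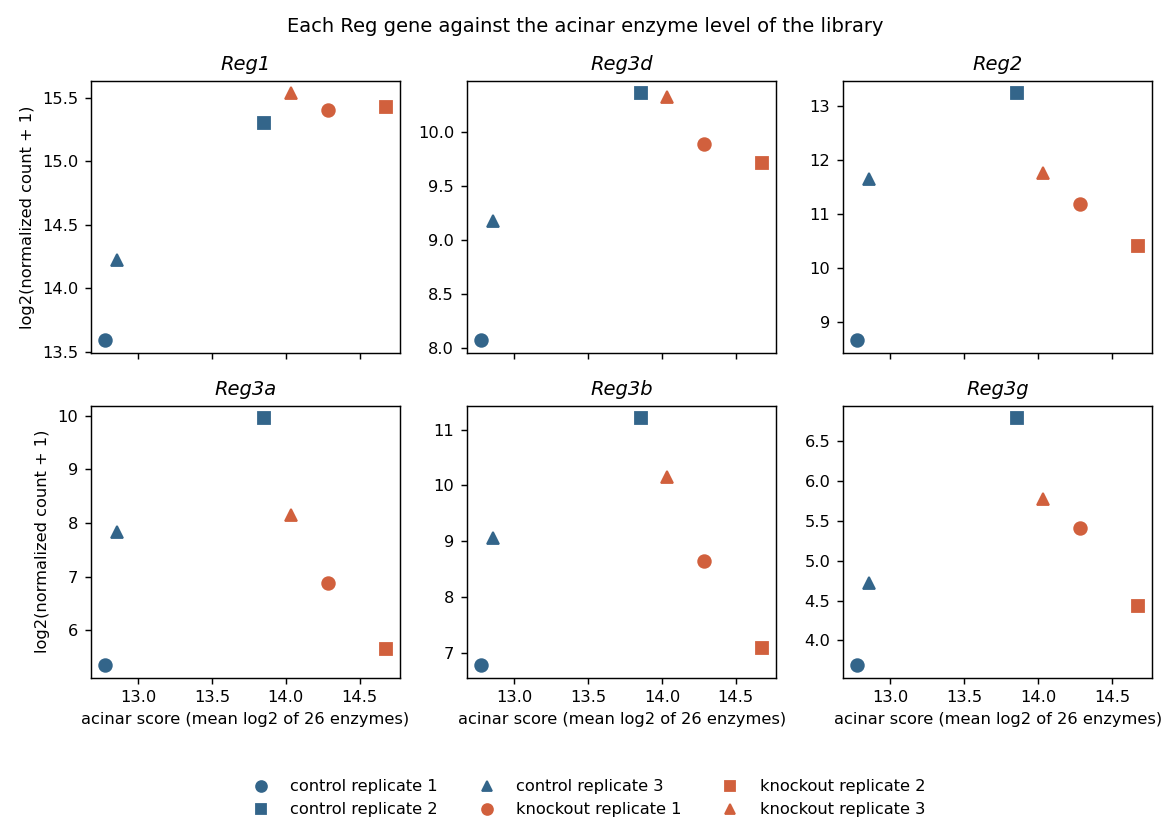
Log2(normalized count + 1) of 6 Reg genes against the acinar score of the library (mean log2 of 26 enzymes); each marker is 1 library. Control replicates 1 and 3 sit apart at scores of 12.77 and 12.86, and among the other 4 libraries Reg2, Reg3a, Reg3b, Reg3d and Reg3g are lowest at the highest score, 14.68.

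The enzymes themselves were all higher in the knockouts. All 26 had a positive log2 fold change, with a median of 1.03 against -0.0066 over the 15811 genes, and 19 had every knockout above every control, against 9.42% of those genes. Only 3 of the 26 passed in DESeq2, where 2.19% of all genes did, namely Try5, a trypsinogen (1.48 ± 0.43 SE, adjusted p = 0.0311), the lipase-related gene Pnliprp2 (1.37 ± 0.39, adjusted p = 0.0303) and the chymotrypsin gene Ctrc (0.99 ± 0.26, adjusted p = 0.0110). In edgeR 0 of the 26 passed, with 23 at an unadjusted p under 0.05 in each tool, against 9.03% of all genes in DESeq2 and 9.48% in edgeR. The DESeq2 count was 0 without control replicate 1 (2.49% of all genes passed) or knockout replicate 2 (2.25%) and 1 without knockout replicate 1 (0.88%). It was 2 without knockout replicate 3 (1.49%) and 23 without control replicate 2 (1.56%). Reg1, at 0.91, thus lay near the median of the enzymes, with Cpa1 at 1.11 and Cela2a at 1.00. Trypsinogen and amylase genes are near-identical copies, so their single counts are uncertain. Among 11 other acinar genes 10 had a positive log2 fold change, and Bhlha15 was at -0.11. In DESeq2 3 rose (2.19% of all genes passed), the acinar transcription factor gene Ptf1a (1.34 ± 0.35, adjusted p = 0.0122), the zymogen granule gene Gp2 (1.16 ± 0.27, adjusted p = 0.00183) and Erp27 (0.91 ± 0.25, adjusted p = 0.0200). In edgeR 0 passed (0.115%), with 8 at an unadjusted p under 0.05 (9.48%). Of these 6 genes only Gp2 passed in DESeq2 whichever library was left out (highest adjusted p = 0.0441); the others reached an adjusted p of 0.200 (Ptf1a) to 0.351 (Try5), and with the score as a covariate 0 of the 6 passed.

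**Figure D4:**
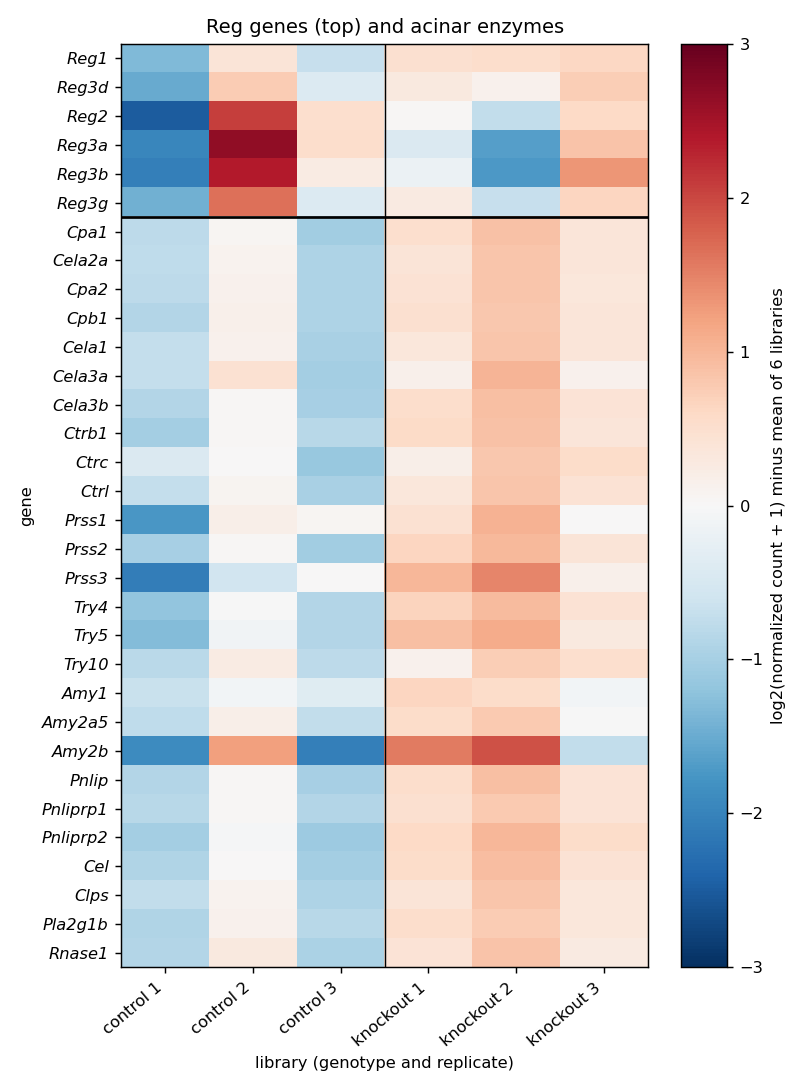
Log2(normalized count + 1) of 6 Reg genes (above the line) and 26 acinar enzymes in the 6 libraries, each gene minus its own mean, with colours limited to 3 in either direction. For 25 of the 26 enzymes, all but Prss1, every knockout is above control replicates 1 and 3, and in knockout replicate 2, where their sum is highest, Reg2, Reg3a, Reg3b and Reg3g are below their means.

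A proposed Reg receptor and genes of the path from interleukin-6 and interleukin-22 receptors to STAT3 were read from the same fit. Extl3, proposed as a receptor for Reg proteins, had 7863, 7056 and 8096 normalized counts in control and 8760, 8694 and 7742 in knockout replicates 1 to 3, so the groups overlapped (log2 fold change 0.13 ± 0.087 SE, DESeq2 adjusted p = 0.634). Of 18 genes for this receptor and the path from interleukin-6 and interleukin-22 receptors to STAT3, 1 passed in DESeq2 (2.19% of all genes did) and 0 in edgeR (0.115%), with 5 at an unadjusted p under 0.05 in each tool (9.03% and 9.48% of all genes), and the median log2 fold change was 0.16. In DESeq2, 3 passed without control replicate 1 (2.49% of all genes) and 2 without knockout replicate 2 (2.25%). The gene that passed was Il22ra1, the specific chain of the interleukin-22 receptor. It had 57.5, 74.9 and 46.7 normalized counts in control and 168, 151 and 130 in knockout replicates 1 to 3, and every knockout library was above every control. Its log2 fold change was 1.32 ± 0.30 (SE, DESeq2 adjusted p = 0.00143, edgeR adjusted p = 0.172). With the acinar score as a covariate it was 0.84 (DESeq2 adjusted p = 0.740), and without knockout replicate 1 it was 1.23 (DESeq2 adjusted p = 0.0641).

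For Stat3 itself the log2 difference between groups was 0.28 ± 0.13 SE (adjusted p = 0.344 in DESeq2, 0.00103 without knockout replicate 2). For Socs3, the feedback inhibitor that STAT3 induces, it was 0.53 ± 0.17 (adjusted p = 0.0692 in DESeq2, 0.0215 without control replicate 1 and 0.0291 without knockout replicate 1). Il6st, the shared signalling chain of the interleukin-6 family, was at 28804 normalized counts in control replicate 2, the library with the highest Reg2, Reg3a, Reg3b, Reg3d and Reg3g, and at 17024 to 18519 in the other 5. Its log2 fold change was -0.30 ± 0.25 (DESeq2 adjusted p = 0.747), and -0.88 with the acinar score as a covariate (DESeq2 adjusted p = 7.01e-04). Of 8 STAT3 and acute phase target genes, 0 passed in DESeq2 or edgeR (2.19% and 0.115% of all genes did). At an unadjusted p under 0.05 there were 3 in each tool (9.03% and 9.48% of all genes). The median log2 fold change of the 8 was 0.52, against -0.0066 over the 15811 genes with a mean of at least 50. In DESeq2, 2 passed as higher without knockout replicate 2 (2.25% of all genes passed) and 1 as lower without control replicate 2 (1.56%). That list includes Lcn2, an iron-scavenging acute phase protein gene, at 33.9 to 53.8 normalized counts in controls and at 236, 63.9 and 69.9 in knockout replicates 1 to 3 (DESeq2 adjusted p = 0.0865). Knockout replicate 1, the highest for Lcn2, ranked 3 or 4 of the 6 libraries for each Reg3 gene.

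Other cell types of the preparation were followed through marker lists. Over all genes 2.19% passed in DESeq2 and 0.115% in edgeR, and 9.03% and 9.48% were at an unadjusted p under 0.05. Each list's count stands beside these shares. Duct genes summed to 53127 to 59796 normalized counts in controls and 61234 to 63243 in knockouts, and 4 of 12 rose in DESeq2, led by Pigr (0.99 ± 0.18 SE, adjusted p = 2.35e-05) and Muc1 (0.66 ± 0.14, adjusted p = 0.0010), with 0 in edgeR and 4 at an unadjusted p under 0.05 in each tool. In DESeq2 the duct count was 2 without control replicate 1 (2.49% of all genes passed), control replicate 2 (1.56%) or knockout replicate 3 (1.49%). With the acinar score as a covariate it was 1 (1.31%), and Muc1 was at 0.24 (adjusted p = 0.879). Of the 12 duct genes 8 had a positive log2 fold change, while Cftr was at -0.51, Tspan8 at -0.18, Epcam at -0.15 and Sox9 at -0.11. Of 11 genes of acinar injury and metaplasia, a state in which Reg3 genes are known to be high, 2 rose in DESeq2, the trefoil factor gene Tff2 (1.01 ± 0.29, adjusted p = 0.0314, and 0.245 without knockout replicate 1) and again Muc1, with 0 in edgeR and 4 at an unadjusted p under 0.05 in each tool. With the acinar score as a covariate 0 of them passed in DESeq2 (1.31% of all genes did), and Tff2 was at 0.22 (adjusted p = 0.746). In the main fit 9 of these 11 genes had a positive log2 fold change, while Cd44 was at -0.18 and Sox9 at -0.11. Leukocyte markers summed to 11081 to 12218 in controls and 11005 to 12994 in knockouts, with 2 of 11 higher in DESeq2 (Cd68 and C1qb, macrophage genes) and 0 in edgeR, with 5 and 4 at an unadjusted p under 0.05. Both lost the call in DESeq2 without knockout replicate 1 (adjusted p = 0.456 and 0.182). In the leukocyte list 8 of 11 had a positive log2 fold change, while C1qa was at -0.27, Il1b at -0.96 and Ptprc at -0.016. Mesenchymal markers summed to 83838 to 96859 and 125620 to 131116, with 5 of 9 higher in DESeq2 (2.19% of all genes passed) and 3 in edgeR (0.115%), and 3 in DESeq2 with the acinar score as a covariate (1.31%). Of these 9, 7 had a positive log2 fold change. Acta2, at -0.29, had every knockout below every control, and Rgs5 was at -0.07. Without control replicate 1, 5 passed as higher and 1 as lower in DESeq2 (2.49% of all genes). Endothelial markers summed to 74066 to 86059 and 81324 to 92862, with 1 of 7 (Vwf) higher in DESeq2 and 0 in edgeR, and 1 at an unadjusted p under 0.05 in each tool. In DESeq2, Vwf was at an adjusted p of 0.0513 without knockout replicate 3, and its log2 fold change of 0.55 was 0.25 with the acinar score as a covariate (adjusted p = 0.847). Of 10 markers of intestinal epithelium, where Reg3 genes and Reg4 are also made, Sis and Defa24 were at 0 in every library, while Vil1, an actin-binding protein gene of brush borders, was at 10181 to 13820 normalized counts. Apoa4, an apolipoprotein gene, was at 425 in knockout replicate 1 and 0 to 12.7 elsewhere, and Fabp2, a fatty acid-binding protein gene, at 22.7 there and 0 to 4.13 elsewhere (these 3 were named after their values were seen). In that list 0 of the 6 tested passed in DESeq2 or edgeR (0 and 1 at an unadjusted p under 0.05). The part of duct, leukocyte and mesenchymal cells in the Reg counts was not tested.

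Of the libraries left out in turn, control replicate 2 changed the Reg fold changes most. Without it, all 6 members had a positive log2 fold change, at 1.52 for Reg1, 1.27 for Reg3d, 1.06 for Reg3g, 0.79 for Reg3b, 0.40 for Reg2 and 0.17 for Reg3a. Reg1 (DESeq2 adjusted p = 3.12e-17) and Reg3d (DESeq2 adjusted p = 0.00601) then passed, where 1.56% of all genes did, and 23 of the 26 acinar enzymes passed in the same fit. Reg2, Reg3a, Reg3b and Reg3g did not pass there (DESeq2 adjusted p = 0.989, 0.997, 0.967 and 0.749). In each of the 5 fits that left out another library, the values of Reg1 and Reg3d were positive, those of Reg2, Reg3a, Reg3b and Reg3g negative, and 0 members passed. In those fits 2.49% (without control replicate 1), 6.28% (control replicate 3), 0.88%, 2.25% and 1.49% (knockout replicates 1, 2 and 3) of all genes passed. With all 6 libraries 0 members also passed with TMM factors (2.29% of all genes), no filter (2.17%), a filter of 10 counts in 3 libraries (2.28%), no Cook's distance filter (2.2%) and the replicate number as a block (2.47%).

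**Figure D5:**
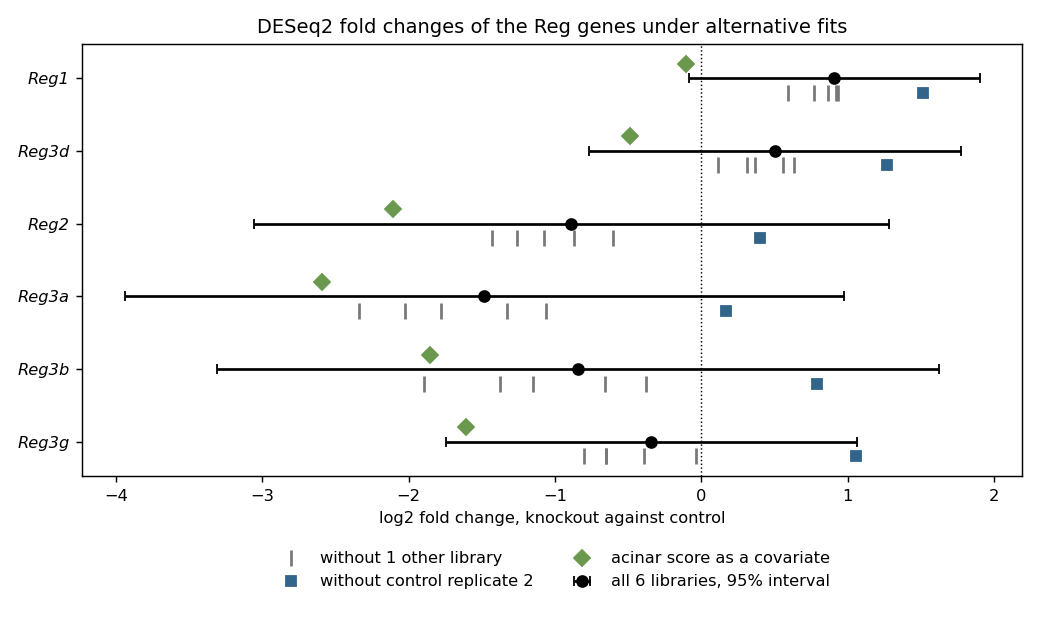
DESeq2 log2 fold changes (knockout against control) of 6 Reg genes with all 6 libraries (black points, 95% intervals), without 1 library (grey ticks, blue squares for control replicate 2) and with the acinar score as a covariate (green diamonds). Every interval of the full fit includes 0; without control replicate 2 all 6 values lie above 0, and with the covariate all 6 lie below it.

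For the 5 members with a mean of at least 50 normalized counts, which leaves out Reg3g and Reg4, the most alike genes were sought by Pearson's r on log2 values over the 6 libraries among the 15811 genes, as a description with no test. For Reg1 they were Ccdc34, Coq10a, Map3k20, Cdkn2d and 9530082P21Rik (r from 0.979 to 0.986), and for Reg3d Ybx2, Zfp184, 1110008L16Rik, Etfrf1 and Becn1 (0.978 to 0.993). For Reg2 they were Hectd2, Mpv17, A930015D03Rik, Axl and Sh3bgrl3 (0.979 to 0.995). Reg3a and Reg3b were each among the 5 genes most like the other. The rest for Reg3a were Dglucy, 9430065F17Rik, Dctn2 and Anp32a, and for Reg3b Bex2, Pdpn, Dctn2 and Dnajc17. A high r did not mean an equal size of change: Hectd2 ran from 518 to 593 normalized counts where Reg2 ran from 405 to 9633. No acinar enzyme was among them.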

How the data were processed

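Polyadenylated RNA of isolated islets was sequenced in 6 libraries, 3 for each genotype. The values are raw read counts per gene as deposited by the authors in 1 table; per the submitters' processing notes FastQC, STAR, featureCounts and DESeq2 were used with the build mm10, and versions, strand setting and annotation are not given in the sources used here. All 55536 identifiers and symbols matched GENCODE M21 (GRCm38), which gave coordinates and exon lengths. Columns were matched to samples by group and replicate number; 0 were unused.

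DESeq2 1.42.0 (R 4.3.3) was fitted on genes with at least 10 counts in total, with genotype as the only term, as the series' design text states, the Wald test and a Benjamini-Hochberg adjusted p of 0.05 over all genes. Alternatives were edgeR 4.0.16 (quasi-likelihood, TMM), TMM factors in DESeq2, no filter, at least 10 counts in at least 3 libraries, no Cook's distance filter, the replicate number as a block, the acinar score as a covariate, and each library left out in turn. The fits were tested on simulated data. Exact permutation tests used scipy 1.17.1 on log2(normalized count + 1). Named genes were all Reg genes, Cpa1, Cela2a, Extl3, Il22ra1, Il6st, Stat3, Socs3, up to 4 genes past the threshold per list with a mean of at least 50, and the 5 genes most like each Reg gene; Lcn2 and the genes marked so in the text were named after their values were seen. The members and lists were chosen with earlier results of these data known. Counts at this depth are limited by the spread between libraries, and floors cover counting error only. Replicates of a group differed by 40.0 to 120 times the chi-square expected from counting, so none was counted as a repeat of another.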

Additional observations from a re-analysis of the deposited data

How the results depend on the processing

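No Reg gene passed the threshold with all 6 libraries under any of the 7 alternatives to the fit. The number of genes past it was 389 in DESeq2, 29 in edgeR and 208 with the acinar score as a covariate, and 153 to 952 when 1 library was left out. With the covariate the log2 fold change of Reg1 was -0.10 and of Reg3d -0.49, in place of 0.91 and 0.51. Without 1 library the log2 fold change ran from 0.59 to 1.52 for Reg1, from 0.11 to 1.27 for Reg3d, from -1.43 to 0.40 for Reg2, from -2.34 to 0.17 for Reg3a, from -1.90 to 0.79 for Reg3b and from -0.80 to 1.06 for Reg3g; the highest value of each came without control replicate 2. With the replicate block Reg3b was at 0.063 and Reg3g at 0.26, in place of -0.84 and -0.34, Reg1 was at 1.09 (DESeq2 adjusted p = 0.158), and 405 genes passed, of which 281 also passed without it. With the block 21 of the 26 acinar enzymes passed, in place of 3, with Cpa1 at an adjusted p of 3.73e-25 and Cela2a at 6.79e-22 in DESeq2, in place of 0.113 and 0.178. The numbers do not pair the libraries: same-numbered libraries' deviations had a mean correlation of -0.032 (-0.059 to 0.010), and not every library correlated best with its own number. With Cpa1 and Cela2a alone as the score, the correlation of Reg3a was -0.012 in place of 0.030. For none of these was the cause tested.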
